A study of Mus musculus with 12 samples.

Results

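The miR-17-92 cluster is a polycistron: one primary transcript that carries several microRNA hairpins, from which miR-17, miR-18a, miR-19a, miR-20a, miR-19b and miR-92a are cut. Related copies of it, its paralogs, give miR-106a and miR-20b in one place and miR-106b, miR-93 and miR-25 in another. These microRNAs were followed across mouse optic nerves. Members were the rows of the raw nCounter table whose probe name, split at the plus sign, held miR-17, miR-18a, miR-19a, miR-19b, miR-20a, miR-92a, miR-92b, miR-106a, miR-106b, miR-25 or miR-93. These 11 names fell on 10 of the 599 microRNA probes of the panel, because miR-106a and miR-17 share a probe. A further member probe reads miR-20a together with miR-20b. The other 8 probes each name a single microRNA: mmu-miR-18a, mmu-miR-19a, mmu-miR-19b, mmu-miR-92a, mmu-miR-92b, mmu-miR-106b, mmu-miR-25 and mmu-miR-93.

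The nerves came from male C57Bl/6 mice and were isolated before treatment. Untreated nerves (Control) were set against nerves under oxygen-glucose deprivation (OGD), a model in which oxygen and sugar are withdrawn to imitate ischemia. The other 2 groups had OGD and a drug, either CX-4945, known as silmitasertib, an inhibitor of casein kinase 2, or MS-275, known as entinostat, a blocker of class I histone deacetylases. There were 3 samples in each of the 4 groups, so the 12 lanes hold 1 sample each. There was no group with a drug and no OGD. Age, doses, times, the order of drug and deprivation, and how many nerves or animals lie behind a sample could not be taken from the labels. The labels do not say that samples came from separate animals, so each p-value measures only the spread between these samples.

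A microRNA guides a silencing complex to messenger RNAs that pair with its seed, the short stretch near its 5′ end. The miR-17-92 transcript is a direct target of the transcription factors MYC and E2F, and its products dampen brakes on growth and survival such as Bim (Bcl2l11) and the cell cycle inhibitor p21 (Cdkn1a). In the oligodendrocyte lineage of the mouse, which makes the myelin of the optic nerve, the cluster is known to promote expansion of the precursors. MYC in turn lowers many other microRNAs, among them members of the let-7, miR-29 and miR-30 families.

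The mature sequences show what a probe must tell apart and which members can act on the same targets. They are RefSeq's for assembly GRCm38.p6. The panel gives the older names without an arm, so the arm was taken from the naming convention and not from the files. Sequences run 5′ to 3′, and capitals mark the seed, bases 2 to 8. The first 6 share the seed AAAGUGC, and miR-18a differs from them inside it:
miR-17: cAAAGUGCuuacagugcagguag
miR-106a: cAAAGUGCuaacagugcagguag
miR-20a: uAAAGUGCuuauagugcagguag
miR-20b: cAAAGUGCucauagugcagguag
miR-106b: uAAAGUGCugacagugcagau
miR-93: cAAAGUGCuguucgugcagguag
miR-18a: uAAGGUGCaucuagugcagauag
The miR-19 members share GUGCAAA:
miR-19a: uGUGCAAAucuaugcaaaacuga
miR-19b: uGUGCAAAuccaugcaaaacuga
The miR-25 and miR-92 members share AUUGCAC:
miR-25: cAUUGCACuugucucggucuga
miR-92a: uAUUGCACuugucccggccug
miR-92b: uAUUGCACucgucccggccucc

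With positions counted from 1 at the 5′ end and the base of the first-named microRNA given first, miR-17 and miR-106a differ by U10A alone, and miR-20a and miR-20b by U1C and U10C. These are the pairs that share a probe. miR-19a and miR-19b also differ at a single position (U11C) but have a probe each, so part of each signal could come from the other. miR-92a and miR-92b differ by U10C and G21C over the 21 bases compared, and miR-92a and miR-25 by U1C, C14U and C18U. How far each probe tells these apart was not measured here.

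In GRCm38.p6 the founding cluster of 6 hairpins lies at chr14:115043671-115044506 on the plus strand and overlaps the noncoding gene Mir17hg. Its X-linked copy, also of 6 hairpins, lies at chrX:52741693-52742567 on the minus strand. miR-25, miR-93 and miR-106b come from chr5:138165321-138165818 on the minus strand, within Mcm7, which encodes a subunit of the replicative helicase. miR-92b stands alone at chr3:89227116-89227198 on the minus strand. miR-19b and miR-92a each have a hairpin in both the chromosome 14 and the X-linked cluster, with the same mature sequence from either, so their counts cannot be assigned to a locus.

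A probe was taken as detected in a lane when its raw barcode count exceeded the mean plus 2 SD of the 8 negative controls there, a limit of 32.0 to 60.6 counts. Total microRNA counts ran from 255154 to 542933 per lane, and 154 to 224 probes per lane were above the limit, with the lowest numbers of both in OGD replicate 2. The count of the 3 positive ligation controls, spiked molecules that report how well the tag-joining step worked, spanned 3.41-fold between lanes. Its geometric mean was 1726 ± 558 for Control nerves and 1761 ± 657 under OGD alone, and 2749 ± 1061 with CX-4945 and 3020 ± 123 with MS-275 (SD, n = 3 each). Control and OGD nerves therefore had the lower ligation counts and MS-275 nerves the higher ones, and this is set beside the results below. Markers of the oligodendrocyte lineage (miR-219, miR-338-3p, miR-338-5p and miR-138) were above the limit in all 12 lanes except miR-338-5p, in 11, with a summed normalised count of 26786 to 36110 over the 12 lanes.

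Of the 10 family probes, 8 were above the limit in all 12 lanes and were tested, and 2 were below it in every lane. mmu-miR-92a, made from both polycistrons, held raw counts of 5, 10 and 6 in Control, 7, 6 and 9 in OGD, 17, 13 and 24 with CX-4945 and 13, 7 and 6 with MS-275. All of these are under the background limits of their lanes, so the higher numbers in the CX-4945 lanes give no order. mmu-miR-18a, whose raw counts were 4 to 19, was at background as well. mmu-miR-19b, which shares both clusters with miR-92a, was above the limit in every lane, at 71 to 263 raw counts. Counts of different probes are not on one scale, so a signal at background for miR-92a does not give its level relative to miR-19b.

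**Figure D1:**
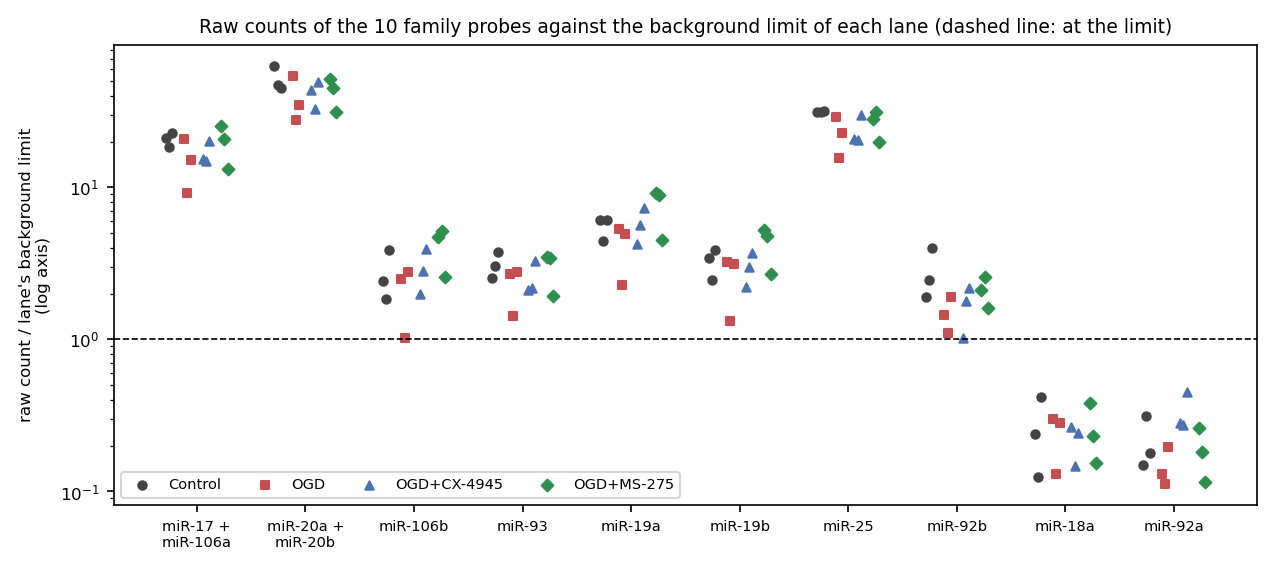
Raw count of each of the 10 family probes divided by the background limit of its lane (log axis), 1 point per lane, coloured by group. 8 probes lie above the dashed line in all 12 lanes, with miR-106b and miR-92b closest to it, and miR-18a and miR-92a lie below it throughout.

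The probes nearest the limit were miR-106b, whose lowest lane (OGD replicate 2) held 55 counts at 1.02 times its limit, and miR-92b, whose lowest lane relative to the limit (OGD+CX-4945 replicate 1) held 62 counts, also at 1.02 times. The miR-20a and miR-20b probe was farthest from it, at 27.7 times the limit or more. Spread between replicates was smallest for miR-93, with a within-group coefficient of variation of 10.2%, followed by 11.9% for miR-25. It was largest for the miR-20a and miR-20b probe, at 25.6%, where counting error alone would give 2.24%.

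Members with the miR-17 seed are described first. In counts scaled by TMM factors (trimmed mean of M-values, which level the lanes for overall yield), the probe for miR-17 and miR-106a read 928, 772 and 789 in Control and 1023, 768 and 741 in OGD. It read 978, 708 and 763 with CX-4945 and 950.5, 703 and 694 with MS-275. The 4 groups overlapped throughout, with means of 830 ± 86.0, 844 ± 155, 816 ± 143 and 783 ± 145 (SD, n = 3), and replicate 1 was the highest lane in each group. miR-17 is the founding member and a regulator of the G1 to S transition. This probe gave the smallest evidence of any difference among the 4 groups within the family (edgeR quasi-likelihood test, adjusted p = 0.969).

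The probe for miR-20a and miR-20b, its closest relatives in sequence, read 2741, 2002 and 1553 in Control, 2678, 2324 and 1703 in OGD, 2789, 1546 and 1844 with CX-4945 and 1934, 1514 and 1659 with MS-275. The MS-275 nerves had the lowest mean, 1702 ± 213, against 2235 ± 494 in OGD, and the groups overlapped. The log2 difference of MS-275 from OGD was -0.39 (SE 0.24, edgeR adjusted p = 0.316).

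mmu-miR-106b, a partner of miR-93 and miR-25 in the Mcm7 intron, had the widest range of the tested members, 2.28-fold between its highest and lowest lane. It read 106.8, 77.7 and 134 normalised counts in Control, 124, 86.1 and 136 in OGD, 128, 135 and 149 with CX-4945 and 177, 175 and 136 with MS-275. The group means stood in the order Control 106.2 ± 28.3, OGD 115.4 ± 26.04, CX-4945 137 ± 10.8 and MS-275 162 ± 23.1, and neighbours in that order overlapped. All 3 MS-275 lanes were above all OGD lanes by a margin under 1 count: the lowest MS-275 lane read 135.778 and the highest OGD lane 135.754.

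mmu-miR-93, from the same intron and with the same seed, read 112, 128 and 129 in Control, 134, 120.5 and 135 in OGD, 135, 103 and 124 with CX-4945 and 130.3, 116 and 102 with MS-275. Its group means lay between 116 ± 14.1 (MS-275) and 129.6 ± 7.91 (OGD), and all groups overlapped. No neighbours in that order differed beyond their spread. miR-93 and miR-106b are both known to target p21.

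The miR-19 members are the part of the cluster known for its growth-promoting activity in mouse lymphoma. mmu-miR-19a read 268, 188 and 210.0 in Control, 264, 191 and 242 in OGD, 270.5, 266 and 278 with CX-4945 and 341, 300.2 and 237 with MS-275. Its means rank as those of miR-106b do, from 222 ± 41.3 in Control through 232 ± 37.3 and 271 ± 5.78 to 293 ± 52.4 with MS-275. The CX-4945 lanes lay above the OGD lanes without overlap, while the MS-275 lanes overlapped both Control and OGD.

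mmu-miR-19b read 151, 104 and 133 in Control, 160.4, 111 and 154 in OGD, 143, 142 and 139.8 with CX-4945 and 197, 160.1 and 141 with MS-275. The highest mean was again that of MS-275, 166 ± 28.5, against 142 ± 26.7 in OGD, with overlapping lanes. miR-19a and miR-19b went together from lane to lane, with Pearson's r of 0.91 between their log2 normalised counts over the 12 lanes, a description over lanes that share groups and one difference in sequence between the targets.

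Among members with the miR-25 and miR-92 seed, which target Bim, mmu-miR-25 read 1373, 1326 and 1089 in Control, 1430.4, 1316 and 1118 in OGD, 1323, 966 and 1123 with CX-4945 and 1047, 1052 and 1053 with MS-275. The MS-275 lanes were nearly equal (1051 ± 3.03) and below every Control and OGD lane, whose means were 1263 ± 152 and 1288 ± 158. In fold terms miR-25 was 0.816 times its OGD level with MS-275, with a 95% interval of 0.645 to 1.03.

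mmu-miR-92b is the lone member on chromosome 3. It read 83.3, 104 and 137 in Control, 71.9, 92.3 and 93.3 in OGD, 65.5, 84.7 and 81.9 with CX-4945 and 79.4, 86.2 and 84.7 with MS-275. Control had the highest mean, 108 ± 27.2, against 85.8 ± 12.1, 77.4 ± 10.4 and 83.4 ± 3.56 in the groups under OGD. Control replicate 1 lay inside the range of each of those groups, so none was separated from Control.

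**Figure D2:**
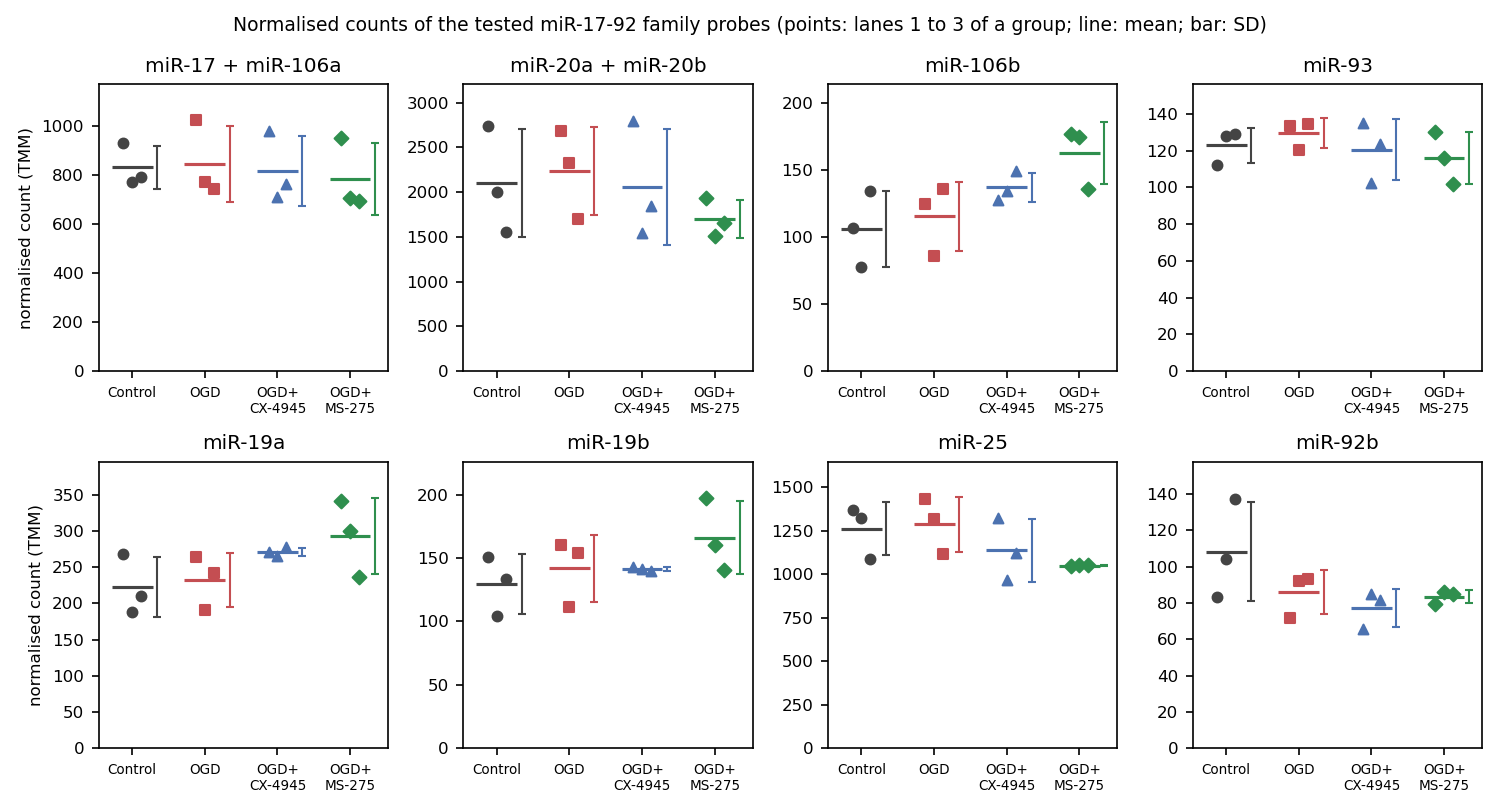
Normalised counts (TMM) of the 8 tested family probes in the 4 groups, from Control at the left to MS-275 at the right. Points are lanes, in replicate order from left to right, horizontal lines are means of 3 and bars are SD. miR-106b and miR-19a have their highest means with MS-275, 162 and 293, miR-25 its lowest, 1051, and miR-92b has its highest in Control, 108.

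OGD against Control asks what the deprivation did to the family. No member was called by edgeR's quasi-likelihood test, where 0% of the 217 tested probes passed an adjusted p of 0.05. 7 members were higher and 1 was lower in OGD, with a median log2 difference of 0.07, against 0.01 over all tested probes; scaled by the mRNA probes all 8 were lower, with medians of -0.09 and -0.19. Nor did the 3 lanes of one group separate from the other 3 for any member, while 13.8% of all tested probes did. The member farthest from 0 was miR-92b, at 0.784 times its Control level (log2 -0.35, SE 0.19, edgeR adjusted p = 0.747). For all 8 members the 95% interval of the fold lay within a factor of 2 in either direction: for miR-17 with miR-106a it ran from 0.776 to 1.34, and for miR-25 from 0.807 to 1.29. In whole nerves, fewer cells of a type and less microRNA per cell cannot be told apart.

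With CX-4945 added to OGD, none of the members was called against OGD alone, and again 0% of all tested probes were called (edgeR). 2 members were higher and 6 lower, with a median log2 difference of -0.08, against 0.03 over all probes. Scaled by the mRNA probes all 8 were higher (median 0.17, against 0.30 over all probes), as they were scaled by the positive controls (0.25, against 0.39), and scaled by the ligation controls all 8 were lower (-0.34, against -0.26). 1 member had lanes that did not overlap, miR-19a, which was higher at 1.16 times the OGD level (log2 0.22, SE 0.18, edgeR adjusted p = 0.802). Lanes separated in this way for 6.45% of all tested probes. miR-106b stood at 1.18 times (log2 0.24, SE 0.20, edgeR adjusted p = 0.813) and miR-25 at 0.883 times (log2 -0.18, SE 0.16). All 8 intervals lay within a factor of 2.

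With MS-275 added to OGD, the log2 differences of the members from OGD ran from -0.39 to 0.48, and none passed the test, with 0.461% of all tested probes called (edgeR). miR-106b had the largest log2 difference from OGD, 0.48 (SE 0.20, 95% interval 0.05 to 0.91), or 1.40 times the OGD level, at an unadjusted p of 0.0298 and an adjusted p of 0.223. miR-19a followed at 0.33 (SE 0.18, edgeR adjusted p = 0.288) and miR-19b at 0.22 (SE 0.18, edgeR adjusted p = 0.471). On the other side lay the miR-20a and miR-20b probe at -0.39 (SE 0.24) and miR-25 at -0.29 (SE 0.16, edgeR adjusted p = 0.288). Numbers in the sample titles fall into 3 runs, and OGD+MS-275, unlike the other groups, has no lane in the highest-numbered one. With these runs as a block, edgeR called 24 of the 217 tested probes against OGD and 37 against Control. Among these, miR-106b passed against OGD and Control. The miR-20a and miR-20b probe passed against OGD in that fit. With the ligation count added to the block, 0 probes were called in either comparison. The labels do not say that the numbers pair samples, and the values are given with the processing. Of the 8 members, 3 were higher and 5 lower, and the Mcm7 mates miR-106b and miR-25 lay on opposite sides of 0. Their median was -0.07, against 0.03 over all probes. These directions hold relative to the other probes only: scaled by the mRNA probes all 8 members were higher, with a median of 0.39 against 0.52 over all probes, and scaled by the ligation controls all but miR-106b were lower, with -0.54 against -0.43.

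Lanes of the MS-275 and OGD groups did not overlap for 2 members, miR-106b (higher) and miR-25 (lower), in a comparison where 24.0% of all tested probes did not overlap. That is 2 of 8 members, close to the share among all probes. The miR-106b difference ranged from 0.32 without OGD replicate 2 to 0.61 without OGD replicate 3 when lanes were left out singly.

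**Figure D3:**
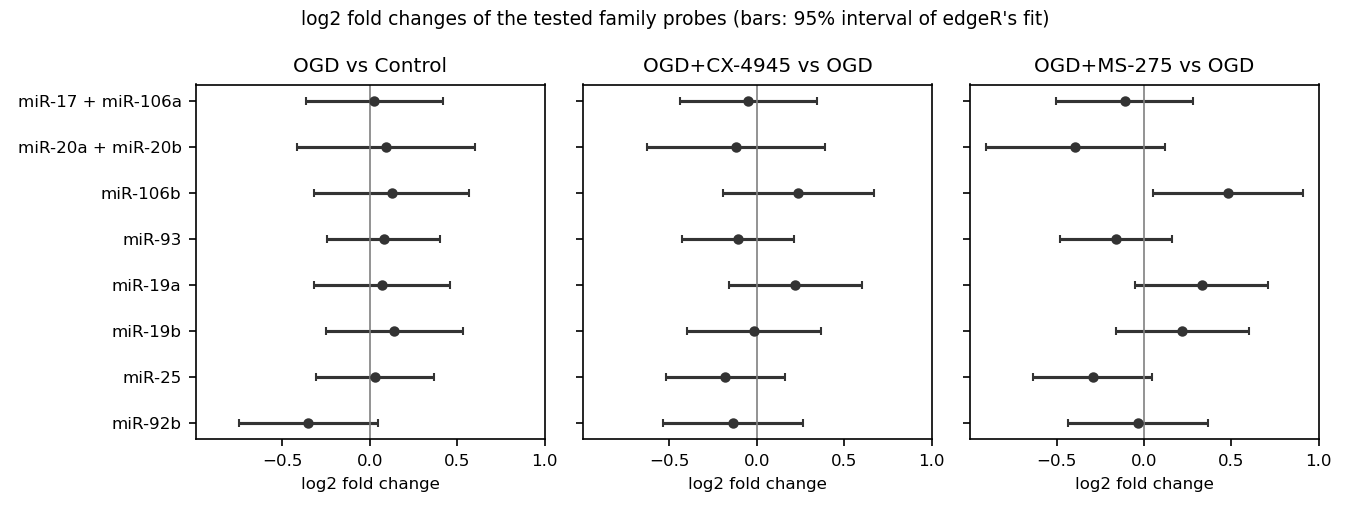
log2 fold changes of the 8 tested family probes in OGD against Control and in each drug group against OGD, with 95% intervals of edgeR's fit (n = 3 per group). All but 1 of the intervals cross 0. The exception is miR-106b with MS-275, at 0.48 with an interval of 0.05 to 0.91, which did not pass after adjustment over 217 probes.

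Set against Control, which these comparisons share with the one above, the drug groups gave the following values. In OGD+CX-4945 no member was called, with 0% of all tested probes called, and none had separated lanes, against 7.83% of all probes. miR-92b stood at 0.713 times Control (log2 -0.49, SE 0.19, 95% interval -0.88 to -0.09, unadjusted p = 0.0184, edgeR adjusted p = 0.362). miR-106b stood at log2 0.36 (SE 0.21, edgeR adjusted p = 0.607).

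In OGD+MS-275 no member was called either, with 1.38% of all probes called. miR-106b was at 1.52 times Control (log2 0.61, SE 0.20, 95% interval 0.17 to 1.04, unadjusted p = 0.00903, edgeR adjusted p = 0.109), the smallest adjusted p of any member in any of the 6 pairwise comparisons. miR-19a was at log2 0.40 (SE 0.18, edgeR adjusted p = 0.187), miR-19b at 0.36 (SE 0.18, edgeR adjusted p = 0.240) and miR-92b at -0.39 (SE 0.18, edgeR adjusted p = 0.217). miR-106b lanes were all above and miR-25 lanes all below those of Control, 2 of 8 members, where 28.6% of all probes separated. 7 of the 8 intervals lay within a factor of 2, the exception being miR-106b, whose interval reached 2.06. With upper-quartile factors in place of TMM, the median of all probes was -0.29 here and 49 of the 217 tested probes were called. Among them were 2 of the 8 members, both lower with MS-275. They were miR-25 (log2 -0.56, edgeR adjusted p = 0.0374) and miR-92b (log2 -0.67, edgeR adjusted p = 0.0240). Scaled by the mRNA probes miR-25 was at 0.009, with a member median of 0.20 against 0.26 over all probes. Scaled by the positive controls it was at 0.09, with medians of 0.27 and 0.33. Scaled by the ligation controls it was at -0.67, with medians of -0.46 and -0.39.

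Between the drugs, no member differed at the threshold in MS-275 against CX-4945 nerves and none had separated lanes, with 0% of all probes called and 8.76% separated. 4 members were higher and 4 lower with MS-275, while 7 were higher when scaled by the mRNA probes and 2 when scaled by the ligation controls. The largest differences were -0.27 (SE 0.24) for the miR-20a and miR-20b probe, 0.24 (SE 0.20) for miR-106b and 0.24 (SE 0.18) for miR-19b, each with an edgeR adjusted p of 0.920. All 8 intervals lay within a factor of 2. The test of any difference among the 4 groups called 0.461% of all probes and no member, with miR-106b lowest in the family (edgeR adjusted p = 0.295), followed by miR-92b (edgeR adjusted p = 0.376).

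Because ligation counts differed between groups, the slope of each probe on the ligation controls was fitted with the groups kept in the model. Over all tested probes 11.5% had a slope past an adjusted p of 0.05, 10 upwards and 15 downwards, and no member did. The members nearest to it lay on opposite sides. The miR-20a and miR-20b probe had a slope of -0.54 (SE 0.17, edgeR adjusted p = 0.0544), in log2 count per doubling of the ligation count. miR-106b had a slope of 0.44 (SE 0.15, edgeR adjusted p = 0.0673), and miR-25 one of -0.26 (SE 0.11, edgeR adjusted p = 0.151). miR-93 lay close to 0 at 0.03 (SE 0.13), as did miR-19a at 0.10 (SE 0.16).

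With the ligation count in the model, the MS-275 difference from OGD was 0.14 (SE 0.20, edgeR adjusted p = 0.852) for miR-106b. It was -0.08 (SE 0.15) for miR-25 and 0.07 (SE 0.23) for the miR-20a and miR-20b probe, and 0.25 (SE 0.22) for miR-19a. The miR-92b difference from Control was larger in this model, -0.67 (SE 0.19, unadjusted p = 0.00396, edgeR adjusted p = 0.215) with CX-4945 and -0.62 (SE 0.21, unadjusted p = 0.0102, edgeR adjusted p = 0.450) with MS-275, and was -0.35 (SE 0.17) in OGD. The ligation counts of the MS-275 lanes, 2914 to 3155, all exceeded those of the OGD lanes, 1109 to 2423. Over that gap, ligation and MS-275 cannot be told apart.

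Within a lane, the ratio of counts of 2 cluster mates does not depend on how the lanes were scaled. Probes differ in efficiency, so only the change of a ratio between lanes can be read, not its size. The ratio of miR-106b to miR-25 counts, both cut from the Mcm7 transcript, was 7.78%, 5.86% and 12.3% in Control and 8.70%, 6.54% and 12.1% in OGD. It was 9.66%, 13.9% and 13.3% with CX-4945 and 16.9%, 16.6% and 12.9% with MS-275. All MS-275 lanes exceeded all OGD and Control lanes. In the drug-free groups, Control replicate 3 and OGD replicate 3, the lanes with the highest ligation counts there (2369 and 2423), also had the highest ratios.

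The lanes fall apart by ligation count, with 5 at or below 1751 and 7 at or above 2369, a division made after these counts were seen. The ratio of miR-106b to miR-25 was 5.86% to 9.66% in the 5 and 12.1% to 16.9% in the 7. miR-19a and miR-20a share the chromosome 14 transcript. The probes of miR-20a with miR-20b, of miR-17 with miR-106a and of miR-19b can also read products of the X-linked cluster. miR-19a to the miR-20a and miR-20b probe was 8.22% to 9.84% in the 5 and 13.5% to 19.8% in the 7. miR-19b to that probe was 4.78% to 5.99% in the 5 and 7.58% to 10.6% in the 7, and the probe of miR-17 with miR-106a to it was 33.1% to 38.6% against 41.4% to 50.8%. For each of these 4 pairs the 7 lanes exceeded the 5, and this held when the mean of the negative controls was subtracted from both counts. That subtraction was added after the data were seen, and gave 3.53% to 8.03% against 10.6% to 15.7% for miR-106b over miR-25. All 3 MS-275 lanes are among the 7, with 2 CX-4945 lanes and 1 each of Control and OGD. Several of the pairs share a probe, so they are not separate observations. How often ratios of other probes divide these lanes in the same way was not examined. The part of ligation in these ratios was not tested.

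Of the other 5 pairs examined, miR-106b to miR-93 (60.8% to 95.3% against 100.8% to 151%) and miR-19b to the probe of miR-17 with miR-106a (13.5% to 16.3% against 16.9% to 22.8%) separated in the same way. The remaining 3 overlapped between the lanes of low and high ligation count. miR-93 to miR-25 was 8.16% to 10.2% against 9.70% to 12.4%, miR-19a to the probe of miR-17 with miR-106a was 24.4% to 28.9% against 26.6% to 42.7%, and miR-19b to miR-19a was 52.7% to 60.8% against 50.4% to 63.6%. That last ratio was the steadiest of the 9 pairs examined, with a 1.26-fold range over all 12 lanes. By group it was 58.3% ± 4.44 in Control, 60.9% ± 2.70 in OGD, 52.1% ± 1.505 with CX-4945 and 56.9% ± 3.18 with MS-275 (SD, n = 3). The CX-4945 lanes, at most 53.2%, lay below the Control and OGD lanes.

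**Figure D4:**
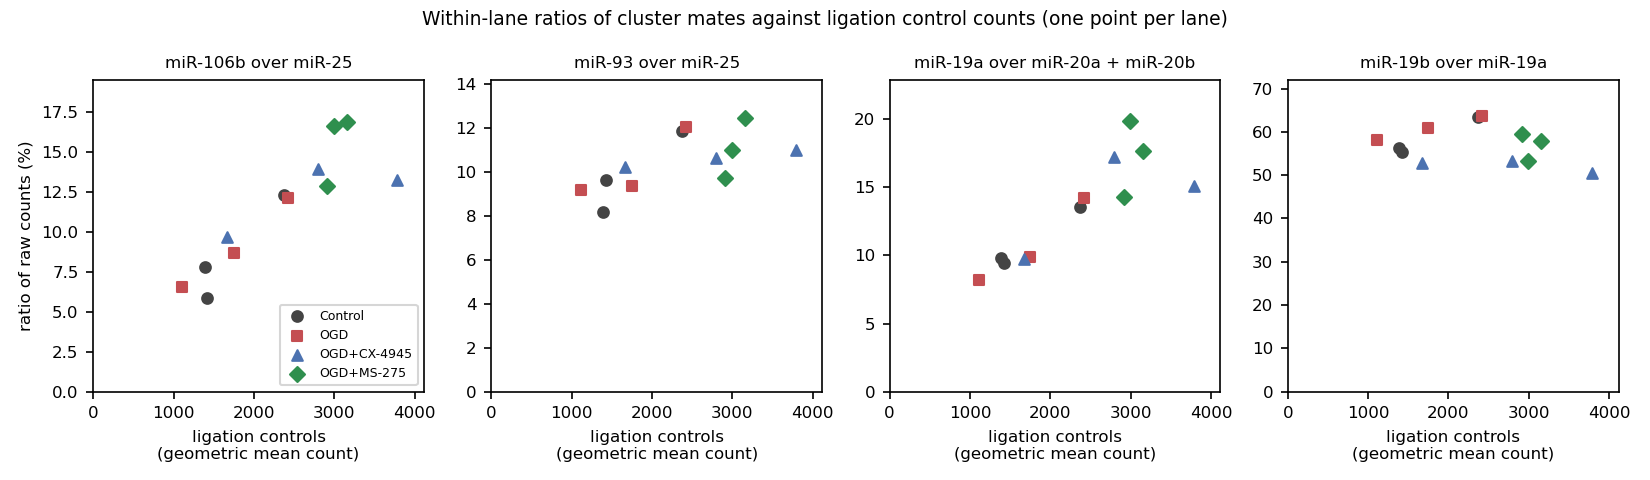
Ratio of raw counts of cluster mates within a lane (percent) against the geometric mean count of the positive ligation controls, 1 point per lane, marked by group. miR-106b over miR-25 and miR-19a over miR-20a with miR-20b are low in the 5 lanes at or below 1751 ligation counts and high in the 7 lanes at or above 2369. The ratios of miR-93 to miR-25 and of miR-19b to miR-19a overlap. miR-20b comes from the X-linked cluster, and miR-19b from both that cluster and the founding one.

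The members did not share one profile over the 12 lanes. Between log2 normalised counts, Pearson's r was 0.89 for the miR-20a and miR-20b probe with miR-25, which come from different chromosomes. It was 0.82 for miR-106b with miR-19a and 0.83 for miR-106b with miR-19b, also from different chromosomes. Within the Mcm7 intron it was -0.67 for miR-106b with miR-25 and -0.03 for miR-106b with miR-93. These are descriptions over lanes that share groups and ligation counts. Likeness to the family was measured with the mean of the 8 tested members, each centred on its own mean, against every other tested probe. The 5 most alike over the 12 lanes were miR-15b (r = 0.79), miR-138 (0.71), miR-340-5p (0.60), miR-181c (0.57) and miR-434-5p (0.57). With group means removed, miR-15b stayed first at 0.83, and miR-26a (0.66) took the place of miR-181c.

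Relatives outside the rule were mostly below the limit. Of 12 listed microRNAs that share a seed or a cluster with members, miR-20b was read on the miR-20a probe and miR-32 was the only other one tested. The remaining 10, including miR-18b and miR-363 of the X-linked cluster and the embryonic stem cell microRNAs miR-302a to miR-302d, were above the limit in no lane. miR-32, which has the miR-92 seed and lies in an intron of Tmem245, was above the limit in 11 lanes. It had 74.0 ± 7.46 normalised counts in Control, 83.5 ± 15.5 in OGD, 78.6 ± 26.1 with CX-4945 and 89.0 ± 30.5 with MS-275 (SD, n = 3), with overlapping groups.

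All 20 microRNAs of a list that MYC is known to repress were tested, and none was called in any of the 6 pairwise comparisons (edgeR). In OGD against Control 10 of the 20 were higher, with a median log2 difference of 0.02, and with MS-275 against OGD 13 were higher, with a median of 0.19. Over all 217 probes 52.1% and 55.8% were higher in these comparisons, with medians of 0.01 and 0.03. The summed normalised count of the list was 109655 ± 1817 in OGD and 102475 ± 8472 with MS-275 (SD, n = 3), so the sum and the median of the list differ in sign. Of the same 20, 4 had a called slope upwards on the ligation controls and 4 a called slope downwards. Over all 217 probes 11.5% had a called slope, 10 upwards and 15 downwards, a smaller share than in the list. The part of ligation in the list's values was not tested.

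Markers of other cells gave the setting of these values. The summed normalised count of the erythroid markers miR-144, miR-451 and miR-486, above the limit in 11, 12 and 11 lanes, was 1362 to 1482 in Control. It was 915 to 1100 in OGD, 814 to 1234 with CX-4945 and 951 to 1190 with MS-275, so every Control lane exceeded every other lane, as the Control mean did for miR-92b. Most of this sum is miR-451, at 1230.3 ± 62.2 in Control. miR-486 went otherwise, at 92.3 ± 21.6 in Control and 98.1 ± 21.4 with CX-4945 (SD, n = 3). The part of blood cells in the miR-92b values was not tested. The 4 microglia and leukocyte markers summed to 2824 to 3668 in OGD and 2272 to 2644 with MS-275, and the 2 endothelial ones to 11209 to 13181 and 9798 to 10178. Both sums were lower with MS-275 without overlap, as was miR-25, in a comparison where 24.0% of all tested probes separated. All 4 leukocyte markers had a log2 difference below 0, but of the endothelial ones 1 lay above 0. The endothelial sum rests on miR-126-3p, which held 7927 to 13787 raw counts. Most of the leukocyte sum is miR-150, at 2317 ± 375 in OGD and 1643 ± 155 with MS-275 (SD, n = 3). Its slope on the ligation controls was called downwards (-0.38, SE 0.09, edgeR adjusted p = 0.0257). None of these markers passed the test of MS-275 against OGD, and their part and that of ligation in the miR-25 difference were not tested. Of the 5 retina and pigment epithelium markers, miR-204 was above the limit in all 12 lanes, at 3773 to 7336 raw counts, and miR-211, miR-96, miR-182 and miR-183 in none.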

How the data were processed

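Small RNA of 12 isolated optic nerve samples, 3 in each of 4 groups given by the labels' agent entry, was profiled on an nCounter microRNA panel, per the labels' protocols. Per the file headers, the main table holds the raw count of barcodes per probe and lane as deposited. The software and panel version behind it are not stated there. A second deposited table holds a processed signal per probe; the authors do not state how it was made. Those signals equalled the count minus the median negative control, scaled by the 4 mRNA probes, with median ratios of 0.998 to 1.00 per lane, and served only as an alternative, with a pseudocount of 1. 1 row without a name was left out.

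Probes above the lane's limit (mean plus 2 SD of 8 negative controls) in at least 3 of 12 lanes were tested, 217 of 599. edgeR 4.0.16 (R 4.3.3) ran its quasi-likelihood test on the raw counts with TMM factors, 1 fit over all lanes with group means, and adjusted p-values by Benjamini-Hochberg over the 217 probes at 0.05. Normalised counts are TMM-scaled. edgeR's common biological variation was 16.6%, and replicates differed by at least 9.93 times the variance that counting alone gives. The step was checked on simulated counts. limma 3.58.1, DESeq2 1.42.0, other scalings, filters, a ligation covariate, blocks by title number and leaving out each lane were alternatives. Named microRNAs were all members, fixed lists of relatives, of MYC-repressed microRNAs and of cell markers, and the 5 probes most alike. Members and lists were chosen with earlier results of these data known. The 33 viral probes count among the 599. Apart from the negative, positive and ligation controls, spike-in probes were not used.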

Additional observations from a re-analysis of the deposited data

How the results depend on the processing

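Each comparison was recomputed under 29 alternatives, 12 of which left out 1 lane. No member was called in the main test, and members passed the threshold in 3 instances. With upper-quartile factors, 2 members passed in MS-275 against Control (miR-25 and miR-92b). With a replicate block of the 3 runs of title numbers, 2 passed in MS-275 against OGD (edgeR, miR-106b at 0.57, adjusted p = 0.0331, and the miR-20a and miR-20b probe at -0.57, adjusted p = 0.0450) and 1 in MS-275 against Control (edgeR, miR-106b at 0.69, adjusted p = 0.0135). The labels do not say that these numbers pair samples. Deviations from group means correlated at -0.61 to 0.56 between lanes of 1 run (median 0.31, 18 pairs) and at -0.65 to 0.67 between runs (median -0.17, 36 pairs). The ranges overlap while the medians differ, so these values do not decide whether samples are paired. Of 1392 member values, 1198 kept their direction and side of the threshold, 189 changed sign while called in neither fit and 5 passed newly. miR-106b stayed positive in MS-275 against OGD (0.06 to 1.28), Control (0.21 to 1.03) and CX-4945 (0.08 to 0.45). It also did in CX-4945 against Control (0.10 to 0.61). miR-92b stayed negative against Control in MS-275 (-0.74 to -0.08), OGD (-0.75 to -0.13) and CX-4945 (-0.70 to -0.24). Positive throughout were also miR-19a in CX-4945 against Control (0.07 to 0.56) and miR-19b in MS-275 against CX-4945 (0.01 to 0.44). Over all probes, the count called in MS-275 against OGD was 1 in the main test, 31 with upper-quartile factors, 2 with library totals, 5 when scaled by mRNA probes or by positive controls and 0 by ligation controls. It was 2 with DESeq2, 3 with the compared groups alone, 0 over probes above the limit in all lanes, 0 after background subtraction, 3 with the processed signals and 0 with the ligation covariate. It was 24 with the replicate block of 3 runs of title numbers, 2 with a replicate block of 2 runs and 0 with the block of 3 and ligation together. In MS-275 against Control it was 3 in the main test, 49 with upper-quartile factors, 9 with totals, 12 with DESeq2, 6 with limma-voom, 19 with the compared groups alone and 1 without a filter. There it was 0 after background subtraction, with the processed signals and with the ligation covariate, 37 and 9 with the replicate blocks of 3 and 2 runs, and 0 with the block of 3 and ligation. In CX-4945 against Control it was 0 in the main test, 1 with relative log expression factors, with upper-quartile factors and with the block of 3 runs, and 2 with DESeq2. The test of any difference called 1 probe in the main test, 4 when scaled by mRNA probes or positive controls, 7 with DESeq2, and 18 and 2 with the replicate blocks of 3 and 2 runs. It called 0 with relative log expression or upper-quartile factors, limma-voom, the processed signals, only probes above the limit in all lanes, background subtraction, the ligation covariate, and the block of 3 with ligation, and could not be run for compared groups alone. Leaving out single lanes gave 0 to 3 calls in MS-275 against OGD, 0 to 13 in MS-275 against Control, 0 to 6 in CX-4945 against Control, 0 to 1 in CX-4945 against OGD and 0 to 4 for any difference, the highest of each without OGD+CX-4945 replicate 1, and 0 members. The causes were not tested.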

Other observations

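The numbers in the sample titles fall into 3 runs, and the labels do not say what they stand for. Control, OGD and OGD+CX-4945 have 1 lane in each run, and OGD+MS-275 has none in the highest-numbered one. The mean centred log2 count of the 8 tested members moved with these runs, though single members did not all follow it. In the lowest-numbered run it was 0.08 in Control replicate 1, 0.14 in OGD replicate 1, 0.10 in OGD+CX-4945 replicate 1, and 0.17 and 0.01 in OGD+MS-275 replicates 1 and 2. In the middle run it was -0.14 in Control replicate 2, -0.12 in OGD replicate 2, -0.12 in OGD+CX-4945 replicate 2 and -0.12 in OGD+MS-275 replicate 3. In the highest-numbered run it was -0.0041, -0.0025 and 0.0035 in replicate 3 of Control, OGD and OGD+CX-4945. No middle-run lane reached any lane of the other runs. The titles end in a second number, whose meaning the labels do not give either. It is 1 to 3 in Control, 4 to 6 in OGD, 7 to 9 with CX-4945 and 10 to 12 with MS-275. The groups and the order of that second number cannot be told apart.

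With the runs as a term beside the groups, an alternative added after seeing the data, 7 of 8 members were lower in the middle than in the lowest-numbered run, with a median log2 difference of -0.33. Over all tested probes 53.5% were lower, with a median of -0.01. The exception was miR-92b at 0.25 (SE 0.13). Outside the family, miR-15b (-0.29, SE 0.10) and miR-138 (-0.36, SE 0.13), the probes most alike to it over the lanes, were lower as well. Both were picked for their likeness over these same lanes, so their values do not show whether the shift was particular to members. No member passed the test of the 3 runs and 0.461% of all probes did, with edgeR adjusted p of 0.0928 for the miR-20a and miR-20b probe and 0.120 for miR-106b and for the probe of miR-17 and miR-106a. Between the highest-numbered and the lowest-numbered run the members went both ways. The log2 difference was -0.62 for the miR-20a and miR-20b probe, -0.33 for that of miR-17 and miR-106a and -0.27 for miR-25. It was -0.16 for miR-19a, -0.09 for miR-19b and -0.0020 for miR-93, but 0.21 for miR-106b and 0.43 for miR-92b. Members were set by probe name, with earlier results of these data known, and the runs were examined after the members' values were seen.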
